A study of Drosophila melanogaster with 4 samples.

Results

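The authors selected genes as changed in fly larval airways when the immune receptor PGRP-LE was overexpressed there. Tsf1 and Fer1HCH are the only ones of these genes annotated with iron binding. They were taken by their CG numbers (the fly annotation's gene identifiers), CG6186 for Tsf1 and CG2216 for Fer1HCH, and make up 2 of 244 rows of the authors' deposited table, which has 1 gene per row. That table was selected by the authors from these same arrays, so the presence of both genes in it, and the size of their ratios, are a description here and carry no test.

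RNA from dissected tracheae of Drosophila melanogaster third-instar larvae aged 10 days and raised at 22 °C was compared on two-colour microarrays, with 20 pairs of tracheae per extract. The PGRP-LE group was the F1 generation of the cross NP2610::UAS-PGRP-LE, in which the GAL4 driver line NP2610 (written NP2160 in the authors' table), described as specific for the larval tracheal system, turned on a UAS transgene for PGRP-LE. The control was the driver strain NP2610 alone, without the transgene. The 4 arrays carry 2 replicate numbers with 2 arrays each, a biological and a technical one, and both groups were hybridised to every array. The series' design text describes the 2 arrays of a replicate number as a dye swap. Both groups carried the driver, but its number of copies may differ between the F1 larvae and the driver strain. The cross also brought in the genome of the UAS strain. PGRP-LE, driver copies and genetic background therefore cannot be told apart. Tracheae were pooled whole, so more cells of a type and more RNA per cell cannot be told apart either.

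Iron is scarce in the blood of an insect because proteins hold it. Transferrin binds ferric iron in the hemolymph and carries it between tissues, and withholding iron from microbes in this way is a known arm of the insect defence, with Tsf1 known in flies as a gene that infection raises. Ferritin stores iron in a protein shell built from heavy chains, which oxidise the incoming iron, and light chains. In insects much of the ferritin is held in the secretory pathway or secreted. Fer1HCH encodes the heavy chain and Fer2LCH the light chain of this secreted ferritin. PGRP-LE binds bacterial peptidoglycan and starts the immune deficiency (IMD) pathway, whose textbook targets are genes for antimicrobial peptides.

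Both iron genes had positive ratios in the authors' deposited table. Which channel is on top of the ratio is not stated. The PGRP-LE cross gives the rows their hybridisation group and is channel 1 on every array, so a positive ratio likely means more RNA in PGRP-LE tracheae, and "higher" is used in that sense. Of the 2 iron genes, 2 were higher by the authors' deposited table, as were 76.6% of its 244 genes, so the direction they share is also the common one in the table.

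Tsf1, which encodes the secreted transferrin, had a mean log2 ratio of 0.70 with an SD of 0.40 over 8 valid spots in the authors' deposited table. That is a 1.62-fold difference, and 1 SD to either side of the mean in the authors' deposited table spans 1.23-fold to 2.14-fold. Fer1HCH, which encodes the ferritin heavy chain, had a mean log2 ratio of 0.82 with an SD of 0.51 over 8 valid spots in the authors' deposited table. Its ratio is a 1.77-fold difference, with a span from 1.24-fold to 2.51-fold at 1 SD in the authors' deposited table. On the log2 scale the lower ends of these ranges in the authors' deposited table were 0.30 for Tsf1 and 0.31 for Fer1HCH. A range of 1 SD that stays clear of 0 does not set the 2 genes apart. It holds for every gene of the authors' deposited table, where the SD was at most 0.97 of the size of the mean.

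The 2 iron genes did not stand apart from each other. Fer1HCH exceeded Tsf1 by 0.12 on the log2 scale in the authors' deposited table, which is less than the smaller of both SDs, 0.40. No interval or test of that difference could be formed, because each SD is over spots pooled from all arrays, and spots of 1 array or 1 extract are not independent. Each gene is represented by 1 row, and no value per array can be given for either, since the spots of the per-array value table are not named by any table used here.

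Both ratios were moderate for this table. Among the 187 higher genes of the authors' deposited table, whose median log2 ratio was 0.92, Fer1HCH had 119 genes above it and 64 below it, and 3 others shared its value. Tsf1 had 159 of the higher genes above it and 26 below it in the authors' deposited table. The smallest positive ratio in the authors' deposited table was 0.59, so Tsf1 lay 0.11 and Fer1HCH 0.23 above the low end of the selected genes on the log2 scale. Both genes thus lay below the median of the positive ratios, and Tsf1 close to where these end.

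**Figure D1:**
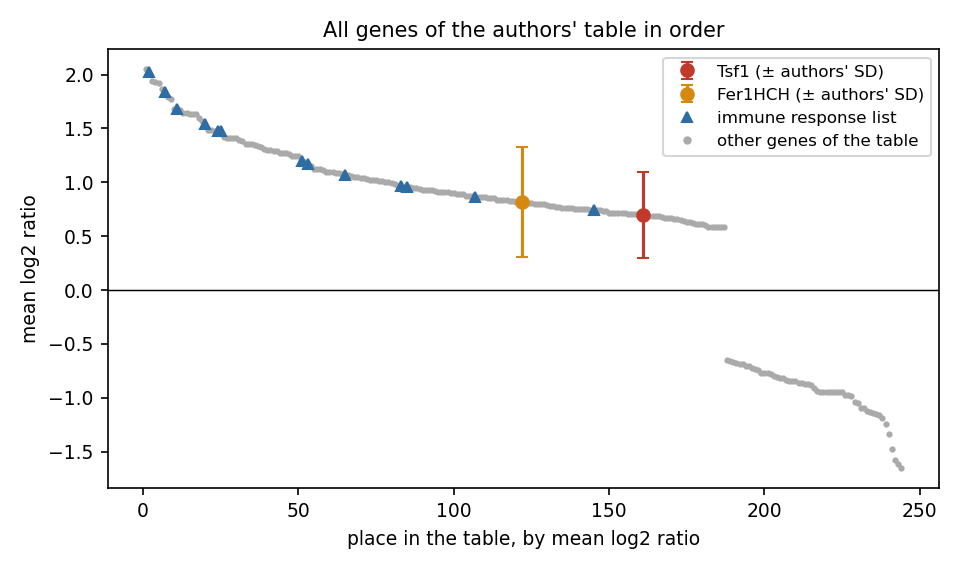
All 244 genes of the authors' deposited table from the highest to the lowest mean log2 ratio (vertical axis) by their place in that order (horizontal axis), with Tsf1 and Fer1HCH as large circles with bars of 1 authors' SD, the 13 genes of the immune response list as triangles and the other genes as dots. Fer1HCH at 0.82 and Tsf1 at 0.70 sit on the flat lower stretch of the positive side, below most of the triangles.

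Tsf1 was measured with a smaller spread than most genes of the table, while Fer1HCH was near the middle. Of all 244 genes, 62 had a smaller SD than Tsf1 and 110 a smaller SD than Fer1HCH in the authors' deposited table, where the median SD was 0.52. The comparison is fairer among the 140 genes with at least 8 valid spots, because fewer spots give a less certain SD. Among those, 40 had a smaller SD than Tsf1 and 73 a smaller SD than Fer1HCH in the authors' deposited table, with a median SD of 0.49. Relative to the size of the ratio both genes were ordinary. The coefficient of variation, the SD divided by the mean, was 0.57 for Tsf1 and 0.63 for Fer1HCH in the authors' deposited table, against a median of 0.585 over all its genes.

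**Figure D2:**
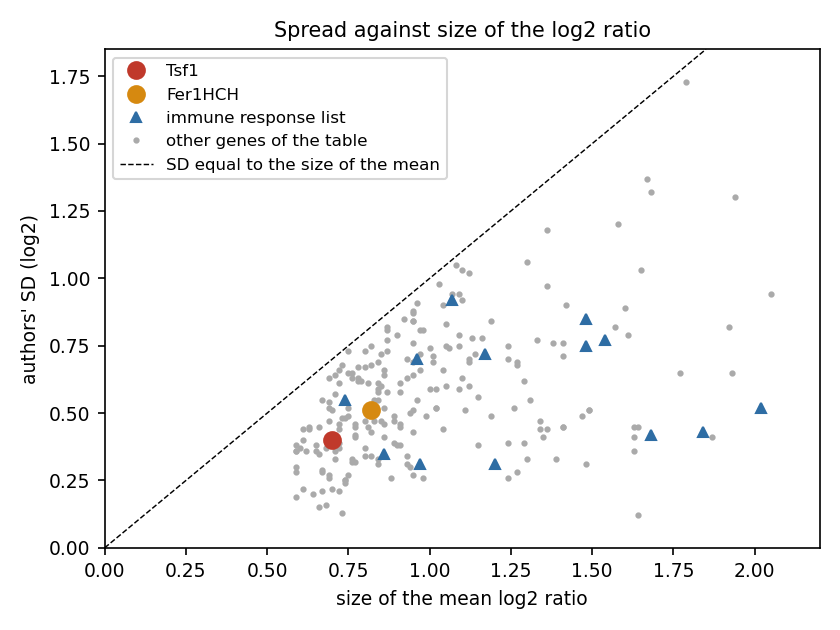
The authors' SD on the log2 scale (vertical axis) against the size of the mean log2 ratio (horizontal axis) for each of the 244 genes, with Tsf1 and Fer1HCH as large circles, the 13 immune response genes as triangles and the other genes as dots. The dashed line marks an SD equal to the size of the mean; no gene lies above it, and both iron genes fall within the crowded lower left of the cloud.

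The iron genes had ratios of smaller size than most immune response genes of the table. Tsf1, at 0.70, and Fer1HCH, at 0.82, were set against a list of 51 antimicrobial peptide, peptidoglycan recognition and IMD pathway genes. The list had 13 members in the authors' deposited table, and all 13 were higher, from 0.74 to 2.02 with a median log2 ratio of 1.20. Beside that, 76.6% of all genes of the authors' deposited table were higher, and the median of its higher genes was 0.92. Tsf1 lay below all 13 and Fer1HCH below 12 of the 13 in the authors' deposited table. Over all 187 higher genes of the authors' deposited table, 85.0% lay above Tsf1 and 63.6% above Fer1HCH, so a place below most of an all-higher list is not particular to immune genes. On the log2 scale of the authors' deposited table, the difference to the list median (iron gene minus list) was -0.50 for Tsf1 and -0.38 for Fer1HCH. The order is a description of 1 table, since no replicate values per gene are at hand to test it, and with the ratio's direction turned 0 of the 13 would lie above Tsf1 and 1 above Fer1HCH, with all sizes unchanged.

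The gap to the iron genes exceeded the spreads for the peptide genes with the largest ratios alone. AttC, which encodes an attacin, a secreted antibacterial peptide, had a mean log2 ratio of 2.02 with an SD of 0.52 over 8 valid spots in the authors' deposited table. AttA, another attacin gene, stood at 1.84 with an SD of 0.43, and the cecropin gene CecA2 at 1.68 with an SD of 0.42 in the authors' deposited table. The range of 1 SD around Tsf1 ended at 1.10 in the authors' deposited table, below those of these 3 genes, which began at 1.50 for AttC, 1.41 for AttA and 1.26 for CecA2. The range of Fer1HCH ended at 1.33 in the authors' deposited table and so met that of CecA2 but of neither attacin gene.

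For the other immune genes the ranges of 1 SD met those of the iron genes. In the authors' deposited table this held for 10 of 13 genes with Tsf1 and for 11 of 13 with Fer1HCH. The drosomycin-like genes Drsl1 and Drsl4 and the peptide gene Listericin had mean log2 ratios of 1.54, 1.48 and 1.48 in the authors' deposited table, each with a spread wide enough to reach the iron genes. Those peptide genes had SDs from 0.75 to 0.85 in the authors' deposited table, larger than either iron gene. DptA, a diptericin gene, had a mean of 1.20 with an SD of 0.31 over 6 valid spots in the authors' deposited table.

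The immune genes nearest to the iron genes came from several roles. PGRP-SD, a secreted recognition protein that senses bacterial cell wall, had a mean log2 ratio of 1.17 in the authors' deposited table, and the defensin gene Def one of 1.07. AttD followed at 0.97 and Rel, which encodes Relish, the transcription factor that the IMD pathway activates, at 0.96 over 13 valid spots in the authors' deposited table. The diptericin gene DptB at 0.86 was the next above Fer1HCH in the list, and the bomanin gene BomT3 at 0.74 was the only one between Fer1HCH and Tsf1 in the authors' deposited table. BomT3 exceeded Tsf1 by far less than its own SD of 0.55 over 6 valid spots in the authors' deposited table. PGRP-LE itself had no row among the 244 genes, so the overexpressed receptor cannot be set beside the iron genes.

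**Figure D3:**
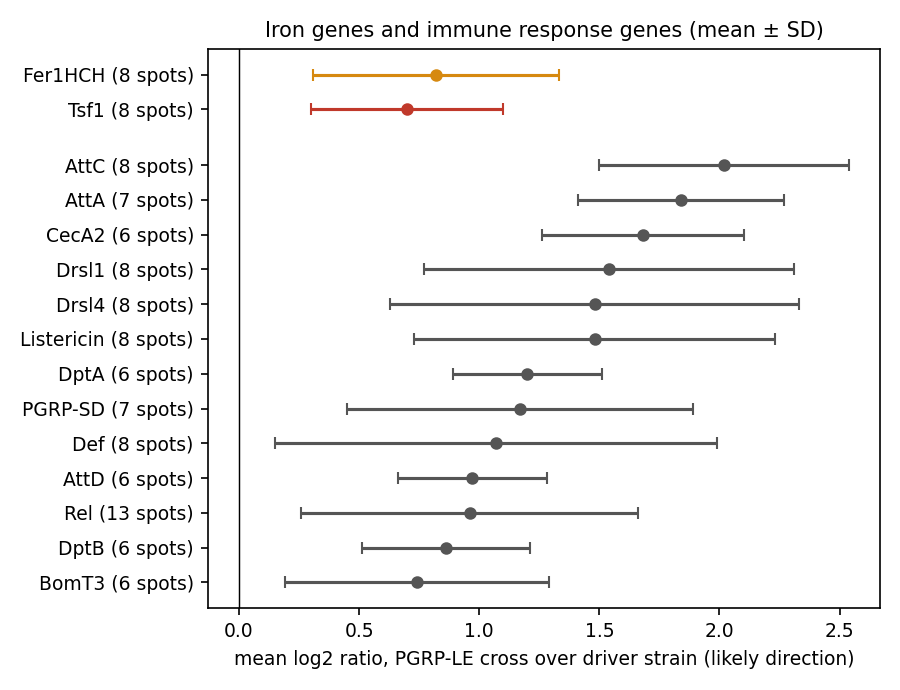
Mean log2 ratios (horizontal axis) with bars of 1 authors' SD for Fer1HCH and Tsf1 at the top and the 13 immune response genes of the authors' deposited table below, each labelled with its number of valid spots. Only the bars of AttC, AttA and CecA2 start to the right of the end of the Tsf1 bar at 1.10.

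By the annotation in the file, Tsf1 is both an iron gene and a defence gene, and Fer1HCH an iron gene. The authors' deposited table gives Tsf1 7 Gene Ontology terms and Fer1HCH 5, and they share 3 of these, iron ion homeostasis, iron ion transport and ferric iron binding. No other gene of the table carries any of those 3 terms, or any other term naming iron or heme, but 94 of the 244 genes carry no Gene Ontology term and could not show one. Tsf1 alone of the pair is annotated as extracellular and as part of the defense response, while Fer1HCH carries ferrous iron binding and the ferritin complex.

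The defense response term covers a mixed set of genes. Apart from Tsf1, 12 genes of the authors' deposited table carry it, of which 9 had a larger ratio than Tsf1 and 3 were lower. Over all genes of the authors' deposited table, 65.2% lay above Tsf1 and 76.6% were higher, so these counts are near those of the whole table. It takes in 4 genes of the immune list as well as glutathione transferase and heat shock genes. GstE1, a glutathione transferase gene, was the nearest to Tsf1 at 0.71 with an SD of 0.33 over 8 valid spots in the authors' deposited table. On the lower side, GstT3, named by RefSeq as a gene of the same enzyme class, had a mean of -0.70 with an SD of 0.22 in the authors' deposited table, the size of Tsf1 with the opposite sign.

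The authors' deposited table annotates 14 genes as extracellular, 12 of them higher and 2 lower, and their median log2 ratio was 1.25. Of these genes, 11 lay above Tsf1, which had the smallest positive ratio among them. They include AttC, AttA, CecA2, Drsl1, Drsl4, DptA and PGRP-SD of the immune list, so this is not a separate comparison. Over the whole of the authors' deposited table, 76.6% of genes were higher, and 159 of the 187 higher genes lay above Tsf1. Lsp2, a larval storage protein of the hemolymph, and gbb, a secreted signalling ligand, were the 2 lower ones.

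Most genes of a list of iron handling genes had no row in the table. Of its 20 genes, 18 were not among the 244 genes. Of the 51 genes of the immune response list, 38 had no row either, so absence is not particular to iron genes. The share without a row among all genes on the array is not known, because its spots carry no gene names. The absent iron genes include Fer2LCH, the light chain partner of Fer1HCH, Fer3HCH, a mitochondrial ferritin, and the transferrin family genes Tsf2 and Tsf3. The metal transporter genes Mvl, Zip99C and mfrn were likewise without a row, as were the multicopper oxidase genes Mco1 and Mco3. The same held for the iron regulatory proteins Irp-1A and Irp-1B, for fh, IscU and Nfs1 of iron-sulphur cluster assembly, and for Ho, FeCH, Alas and Pbgs of heme metabolism. A gene without a row in a table of selected genes has no known level here.

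The 2 iron genes lie on different chromosomes, Tsf1 on chromosome X and Fer1HCH on chromosome arm 3R. In the RefSeq annotation of assembly Release 6, Fer1HCH is next to Fer2LCH. None of the 10 nearest protein-coding genes of Tsf1, 5 on each side, was in the authors' deposited table, and likewise 0 of 10 for Fer1HCH. Most genes of the genome have no row among the 244 selected ones, so these counts do not say whether the neighbours changed. RefSeq lists 2 transcripts for Tsf1 and 9 for Fer1HCH. Some Fer1HCH transcripts of flies are known to carry an iron-responsive element, by which iron regulatory proteins control translation, and which transcripts the array measured is not known here.

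By CG number, Tsf1 has a near companion in the table and Fer1HCH has none. CG6195, 9 numbers from Tsf1 and on chromosome arm 3R, had a mean log2 ratio of 0.84 with an SD of 0.61 over 8 valid spots in the authors' deposited table. The closest number to Fer1HCH in the table was 95 away. CG numbers are identifiers, and CG6195 and Tsf1 lie on different chromosomes, so closeness of their numbers is not closeness in the genome.

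Genes with ratios like those of the iron genes had varied roles. In the order of the file, which lists genes by ratio, the genes next above Tsf1 in the authors' deposited table were CG31549 at 0.70, cert, which encodes a ceramide transfer protein, at 0.71 and T48, a gastrulation gene, at 0.71. Next below it were Atg1, the kinase that starts autophagy, CG11883 and CG11975, each at 0.69 in the authors' deposited table. Around Fer1HCH the authors' deposited table listed dbo, CR18228 and EbpIII at 0.82, ODA-Dnal1 at 0.83, and CG15152 and CG8908 at 0.81. These genes were picked by their place in the table, so their likeness in ratio is fixed by that choice, while their SDs ran from 0.42 to 0.64 around Tsf1 and from 0.34 to 0.75 around Fer1HCH in the authors' deposited table.

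Tsf1 is made chiefly by the fat body, the insect counterpart of liver and adipose tissue, so markers of other tissues were set beside it. Of 9 fat body markers, 1 was in the authors' deposited table, the storage protein gene Lsp2, at -0.86 with an SD of 0.41 over 8 valid spots, opposite in direction to Tsf1. Of 10 blood cell markers that matched a RefSeq symbol, 2 were in the authors' deposited table, NimB2 at 0.80 and atilla at 0.74. Both lay between the values of Fer1HCH and Tsf1. Of 6 muscle markers, 1 was in the authors' deposited table, Mf at -1.09. Of 4 gut markers that matched a RefSeq symbol, 1 was in the authors' deposited table, Jon99Fi at -1.58. Of 8 airway markers, 0 were in the authors' deposited table. Ratios of selected genes between samples of the same tissue could not check the labelled tissue in any case. The levels of markers without a row are not known. The part of other tissues in the iron gene ratios was not tested.

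The per-array value table could not be tied to either gene. It holds 32448 numbered spots per array, with column medians of 0.98 and -0.39 for the biological and technical array of replicate 1 and of -0.07 and -0.41 for those of replicate 2. The base of its values, their centring and the direction of each array are not known. The arrays of a replicate number are described as a dye swap, but whether the deposited values had their sign turned for it is not stated. The dye labels do not settle the direction, since they give Cy5 to both channels of the first array. Across all spots, which share print position and dye effects on each array, the 6 pairs of arrays had Pearson correlations between -0.0861 and 0.106, with 3 above 0 and 3 below 0. Since the direction of each array is not known, the signs of these correlations do not show whether arrays agree. In size all were small, so the values as deposited share little between arrays. The spread of Tsf1 and Fer1HCH between arrays is not known, since the authors' pooled SDs mix it with the spread between spots of 1 array.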

How the data were processed

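Two-colour arrays compared tracheal RNA of PGRP-LE larvae with that of the driver strain. For each gene the table holds, per the file headers, a mean log2 ratio, its SD and the number of valid spots, pooled over arrays, and a coefficient of variation, the ratio of SD to mean. The genes were selected from SAM and GeneTraffic output, per the series' design text, and no source used here gives the background correction, normalization or thresholds. A second table holds a score per spot and array as deposited, with no statement of how it was made.

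The members and lists were chosen with earlier results of these data known. Named are the members, the iron list, immune list members in the table, PGRP-LE and the 3 rows next above and below each member. A rule on genes with like values over arrays could not be applied, because spots carry no gene names. For the same reason the planned limma fits were not run, and no p-value is given.

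Of 244 identifiers, 227 matched RefSeq (Release 6) by locus tag, 13 by a unique older identifier and 4 kept the name in the file. No sequences are printed, as none were in the files used. The code that ranks genes was checked on made-up values of known order, which is no statistical test of the ranks. Alternatives were the turned direction, a minimum of 8 valid spots, a coefficient of variation under 0.5 and another choice of immune rows. The number of arrays and spots limits precision. Python 3.11.15, numpy 2.4.6, pandas 2.3.3, scipy 1.17.1 and matplotlib 3.10.9 were used.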

Additional observations from a re-analysis of the deposited data

How the results depend on the processing

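The values rest on 1 pooled row per gene, so most other settings (separate arrays, a replicate block, a dye term, centring, other feature filters, leaving out arrays or replicates, per-array means, counts of called features) could not be run. No paired analysis was possible because named genes have no values per array. Reading the ratio the other way, with the sign turned, gives -0.70 for Tsf1 and -0.82 for Fer1HCH, 0 higher members of the iron list and 0 of the immune list. It puts 0% of the immune list above Tsf1 and 7.69% above Fer1HCH. It also moves the share of genes above Tsf1 to 34.0%, against 65.2% as reported, while that for Fer1HCH is 49.6%, against 48.8%. With at least 8 valid spots, both iron genes are kept, with 60.0% of genes above Tsf1 and 44.3% above Fer1HCH, and 6 immune list members remain, all higher. With a coefficient of variation under 0.5, 0 iron genes and 6 immune list members remain, since Tsf1 (0.57) and Fer1HCH (0.63) lie above that limit. Taking as immune the rows annotated with defense response, a choice made after seeing the data, puts 75.0% of 12 genes above Tsf1 and 61.5% of 13 above Fer1HCH, against 100% and 92.3% of the list.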

Other observations

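The genes in this paragraph were chosen after their values were seen, and no test was run. Annotations naming metal, zinc, copper or calcium ion binding covered 9 genes of the authors' deposited table other than Tsf1 and Fer1HCH, of which 8 were higher, beside 76.6% of all genes. Their positive ratios ran from 0.59 to 1.79 in the authors' deposited table, and the lower one was brat, a translational repressor, at -1.04. Grx3, which encodes a glutaredoxin of a family that handles iron-sulphur clusters, was in none of the lists. It had a mean log2 ratio of 0.76 with an SD of 0.32 over 8 valid spots in the authors' deposited table, between Tsf1 at 0.70 and Fer1HCH at 0.82.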
